A study of Rattus norvegicus with 20 samples.

Results

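The genes described here are 34 rat genes of fatty acid oxidation and of the response to the peroxisome proliferator-activated receptors (PPARs), named by symbol and grouped by role: mitochondrial import, the steps of beta-oxidation, peroxisomal oxidation, lipid storage and the receptors themselves. On the array, 33 of the 34 had a probe set (a group of probes summarised to 1 value) with exactly 1 gene symbol, out of 18166 such genes in all. Cd36 was left out because its probe set carries several symbols. They were measured on 20 Affymetrix Rat Gene 2.0 arrays of RNA from the INS-1 line, which comes from a rat insulinoma, secretes insulin and is used to model beta cells. Per the series description, 5 clones kept apart for 10 passages were plated at 100000 cells per well about 48 h before treatment, and RNA was taken after 10 h. Every well held the same line, with no genetic change named.

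The 4 groups of 5 arrays carry the title words C4BP, IAPP, C4BPD and DMSO. IAPP wells received monomeric islet amyloid polypeptide (amylin), a peptide hormone of the beta cell that can form amyloid, at 77 uM per the series description. C4BP is C4b-binding protein, a plasma inhibitor of complement, given at 0.6 uM. The titles C4BP and C4BPD are not spelled out. From the 4 conditions of the design, C4BP wells most likely held C4BP together with IAPP, and C4BPD wells C4BP without IAPP. DMSO wells had 1% of the solvent of IAPP. The sample fields state 300 ug/ml for both proteins, which differs from the molar doses. A separate treatment field names the condition of the title in 3 of the 20 arrays, so each result rests on the titles, and the values under that field are given in the closing section.

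Long-chain fatty acids enter mitochondria as carnitine esters. Carnitine palmitoyltransferase 1 makes the ester on the outer membrane and is inhibited by malonyl-CoA, a carrier takes it across the inner membrane, and carnitine palmitoyltransferase 2 turns it back into an acyl-CoA. Each turn of beta-oxidation then dehydrogenates, hydrates, dehydrogenates again and cleaves the chain, releasing acetyl-CoA. PPARs are nuclear receptors that bind fatty acids and, paired with retinoid X receptors, switch on many of these genes. In beta cells, the balance between oxidation and storage of fatty acids is known to bear on insulin secretion and on lipid toxicity.

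The arrays had median intensities between 170.01 and 182.36, and any 2 arrays correlated at 0.994 to 0.998 across genes on the log2 scale. No 2 arrays held identical values. Of 17 listed beta-cell markers, 13 had a probe set, and all 13 lay above the median of all probe sets in every group. Their summed intensity ran between 71406 and 76050 in C4BP wells, 71980 and 75645 in IAPP wells, 75763 and 80185 in C4BPD wells and 75077 and 79413 in DMSO wells. None of the 5 measured endothelial and blood markers lay above that median. In every group 3 of 6 fibroblast markers and 1 of 8 acinar and duct markers did. Of 5 measured markers of other islet cells, 3 did in C4BP, IAPP and DMSO wells and 2 in C4BPD wells. The labels do not say which clone gave which array, so the p-values measure the spread between these arrays only, and the number of arrays limits the precision.

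Members past the threshold were mostly higher in both kinds of wells that held IAPP, and mostly not past it in wells with C4BP alone. In IAPP against DMSO wells, 8 of the 33 genes were higher and 0 lower. A gene is counted where its p-value from limma's moderated test, adjusted by Benjamini-Hochberg over all 18166 genes, lay under 0.05. Over all genes in that comparison, 1.41% were higher and 1.97% lower. The 8 genes were Cpt1a, Slc25a20, Acadl, Acaa2, Eci2, Ech1, Fabp3 and Plin2. At an unadjusted p under 0.05 the count was 12 of 33, against 2235 of all 18166 genes.

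In C4BP against DMSO wells, 9 of the 33 genes were higher and 1 lower, against 2.72% and 3.23% of all genes. The 9 were the same 8 genes with Etfb added, and the gene that was lower was Hadhb. In C4BP against C4BPD wells, 6 were higher and 0 lower, against 0.754% and 1.62% of all genes; these were Cpt1a, Slc25a20, Acaa2, Eci2, Ech1 and Fabp3. C4BPD against DMSO wells gave 1 gene past the threshold, Cpt1a, against 1.93% of all genes in either direction. At an unadjusted p under 0.05 there were 3 of the 33, a smaller share than the 2208 of all 18166 genes. The comparisons with DMSO share their control arrays, and the C4BP wells serve in several comparisons.

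Between C4BP and IAPP wells, limma called 0 of the 33 genes, against 0.606% of all genes. An unadjusted p under 0.05 was found for 2 of the 33, a smaller share than the 1440 of all 18166 genes. The log2 differences there ran from -0.09 for Cpt2 to 0.15 for Acaa2. The interaction asks whether the IAPP effect differs with C4BP present (C4BP minus C4BPD, minus IAPP minus DMSO). It called 0 of the 33, against 0.0495% of all genes. At an unadjusted p under 0.05 it gave 1 of the 33, a smaller share than the 688 of all 18166 genes. A moderated F test across the 4 groups called 9 of the 33, against 7.85% of all genes. Counted without a model, all 5 IAPP arrays lay above all 5 DMSO arrays in 6 members, against 2.14% of all genes, and all 5 C4BP arrays lay above all 5 DMSO arrays in 7, against 2.85%.

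Most members lay near 0 in every comparison. In IAPP against DMSO wells the median log2 difference of the 33 was 0.0061, beside 0.0018 over all genes, and 18 of the 33 were above 0. In C4BP against DMSO wells the medians were 0.025 for the 33 and 0.0047 over all genes, with 22 above 0. The members were therefore divided between 8 or 9 that rose and a majority with small differences of either sign. Ehhadh, Acot1, Angptl4 and Pdk4 had every group mean under the median log2 intensity over all probe sets, 7.48, so a signal over background was not shown for them.

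**Figure D1:**
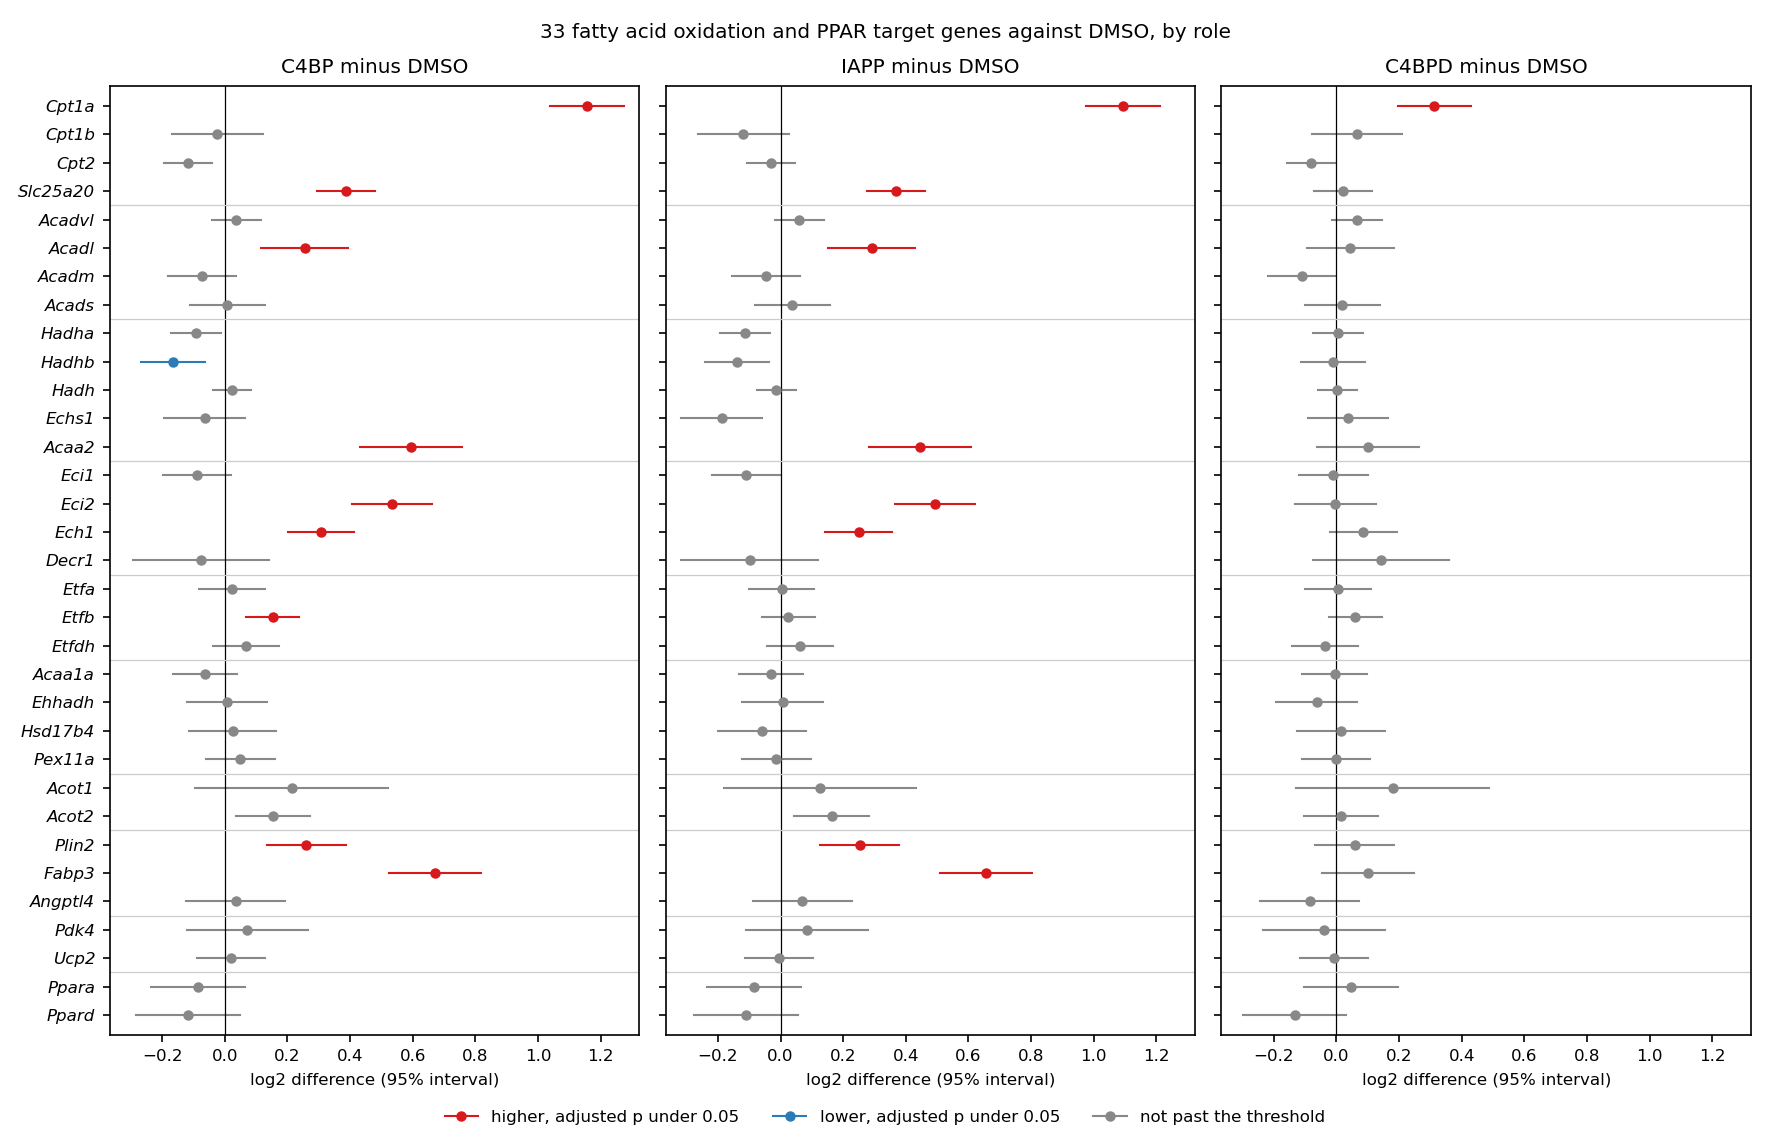
Log2 difference from DMSO wells of the 33 genes (x axis, log2 units, points with 95% intervals from limma), in order of role down the page, for C4BP, IAPP and C4BPD wells from left to right. Red points passed the threshold as higher and the blue point, Hadhb, as lower; in C4BPD wells only Cpt1a passed.

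Import into mitochondria held the largest difference among the 33 genes. Cpt1a, which encodes the liver-type carnitine palmitoyltransferase 1 and the rate-limiting step of import, was 2.13-fold higher in IAPP than in DMSO wells and 2.23-fold higher in C4BP than in DMSO wells. Its intensity in replicates 1 to 5 was 2563, 2658, 2487, 2621 and 2611 in C4BP wells, 2449, 2505, 2449.6, 2450.3 and 2528 in IAPP wells, 1521, 1521, 1409, 1289.7 and 1484 in C4BPD wells, and 1239.6, 1301, 1008, 1146 and 1131 in DMSO wells. All 10 arrays of C4BP and IAPP wells lay above all 10 of C4BPD and DMSO wells, and the C4BPD and DMSO arrays overlapped. The log2 differences were 1.09 ± 0.06 for IAPP against DMSO (SE, n = 5 arrays each, limma adjusted p = 3.84e-10), 1.16 ± 0.06 for C4BP against DMSO (limma adjusted p = 4.37e-11) and 0.84 ± 0.06 for C4BP against C4BPD (limma adjusted p = 2.49e-08).

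Cpt1a was also the member that passed in C4BPD against DMSO wells, at 1.24-fold (limma adjusted p = 0.00334). Fitted on those 10 arrays alone, it missed the threshold (limma adjusted p = 0.0603). Between C4BP and IAPP wells its log2 difference was 0.06, with a 95% interval from -0.05 to 0.18 (limma adjusted p = 0.933). The interaction for Cpt1a was -0.25, with a 95% interval from -0.42 to -0.08 and an unadjusted limma p of 0.00537, and did not pass after adjustment (limma adjusted p = 0.963). The log2 differences with IAPP were thus 0.84 where C4BP was present and 1.09 where it was not, and their difference was not called. RNA of a whole well cannot tell more RNA per cell from a change in the number of cells of a kind.

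Slc25a20 encodes the carnitine-acylcarnitine carrier of the inner membrane. Its intensity in replicates 1 to 5 was 1455, 1337, 1528, 1431 and 1349 in C4BP wells, 1360.2, 1438, 1446, 1348 and 1411 in IAPP wells, 1063, 1101, 1181, 1089 and 1071 in C4BPD wells, and 1091, 1063, 1167, 1032 and 1072 in DMSO wells. Again every C4BP and IAPP array lay above every C4BPD and DMSO array. Slc25a20 was 1.29-fold higher in IAPP than in DMSO wells (log2 difference 0.37 ± 0.04 SE, limma adjusted p = 3.23e-05), 1.31-fold higher in C4BP than in DMSO wells (limma adjusted p = 7.56e-06) and 1.29-fold higher in C4BP than in C4BPD wells (limma adjusted p = 4.1e-05). In C4BPD against DMSO wells its log2 difference was 0.02 (limma adjusted p = 0.910).

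The other import genes did not pass in any comparison. Cpt2, the inner-membrane carnitine palmitoyltransferase, averaged 1937 ± 42.7 in C4BP, 2056 ± 34.2 in IAPP, 1986 ± 80.5 in C4BPD and 2102 ± 86.1 in DMSO wells (SD, n = 5 each). The nearest to the threshold was C4BP against DMSO, at a log2 difference of -0.12 (limma adjusted p = 0.0654). That difference passed without DMSO replicate 3 (limma adjusted p = 0.0342) and with replicate number added to the model (limma adjusted p = 0.0173). Cpt1b, the muscle-type carnitine palmitoyltransferase 1, had log2 differences of -0.12 in IAPP and -0.02 in C4BP wells against DMSO (limma adjusted p = 0.564 and 0.940). The difference at the outer-membrane step was therefore measured for the liver-type gene and not for the muscle-type gene.

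**Figure D2:**
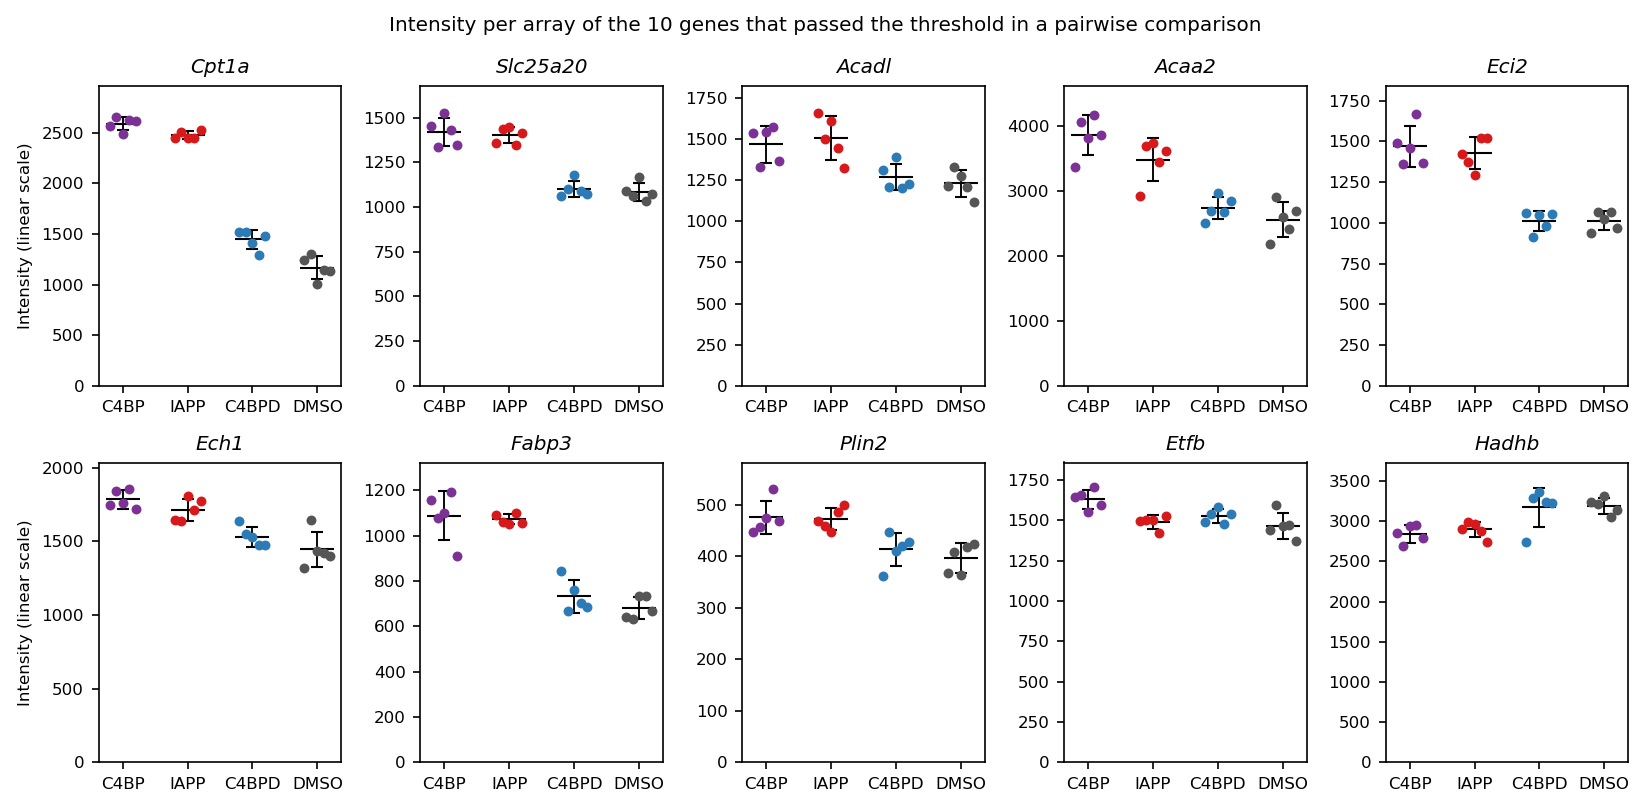
Deposited intensity (y axis, linear scale, from 0) of the 10 genes that passed in at least 1 pairwise comparison, for C4BP, IAPP, C4BPD and DMSO wells from left to right; each point is 1 array, and bars give the mean and SD of 5. In Cpt1a, Slc25a20, Eci2, Fabp3 and Plin2 all 10 arrays of C4BP and IAPP wells lie above all 10 of C4BPD and DMSO wells.

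The stretch around the start of 4 members is shown because PPARs with their retinoid X receptor partner bind direct repeats of the hexamer AGGTCA with 1 base between, and because these 4 differ in how they moved. The sequences are from RefSeq (GRCr8), 250 bases before to 50 after the annotated start, read on the gene's own strand, and 27 of the 33 measured members had an entry. They lie at chr1:209995910-209996209 for Cpt1a (plus strand), chr8:118243323-118243622 for Slc25a20 (plus strand), chr10:55236656-55236955 for Acadvl (minus strand) and chr6:31907451-31907750 for Hadhb (minus strand). Capitals mark a match to AGGTCA on either strand with no mismatch, or to AGGTCA, any base (N) and AGGTCA again on either strand with at most 2 mismatches.
Cpt1a: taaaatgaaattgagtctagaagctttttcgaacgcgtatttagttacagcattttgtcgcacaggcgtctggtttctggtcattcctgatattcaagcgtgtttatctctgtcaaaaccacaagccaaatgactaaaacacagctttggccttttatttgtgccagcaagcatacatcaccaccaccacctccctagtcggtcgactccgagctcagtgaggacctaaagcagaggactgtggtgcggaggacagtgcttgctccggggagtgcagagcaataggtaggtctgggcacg
Slc25a20: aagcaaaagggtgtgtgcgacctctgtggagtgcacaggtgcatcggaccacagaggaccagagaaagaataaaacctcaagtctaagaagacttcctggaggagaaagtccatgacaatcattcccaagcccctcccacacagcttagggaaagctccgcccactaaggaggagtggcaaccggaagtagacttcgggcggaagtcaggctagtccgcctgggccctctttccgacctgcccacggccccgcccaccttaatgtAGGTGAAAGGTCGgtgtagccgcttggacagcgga
Acadvl: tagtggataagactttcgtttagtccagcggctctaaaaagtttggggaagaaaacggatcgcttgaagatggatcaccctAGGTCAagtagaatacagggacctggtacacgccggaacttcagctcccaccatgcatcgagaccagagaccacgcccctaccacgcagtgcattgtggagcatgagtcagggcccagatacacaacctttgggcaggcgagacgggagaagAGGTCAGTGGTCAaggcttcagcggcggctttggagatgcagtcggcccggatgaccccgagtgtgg
Hadhb: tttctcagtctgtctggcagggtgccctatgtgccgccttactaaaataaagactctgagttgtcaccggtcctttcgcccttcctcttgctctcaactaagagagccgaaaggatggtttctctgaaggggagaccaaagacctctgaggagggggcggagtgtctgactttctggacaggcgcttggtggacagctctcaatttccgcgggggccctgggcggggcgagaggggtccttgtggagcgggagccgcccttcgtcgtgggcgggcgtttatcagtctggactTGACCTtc

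Cpt1a, the member with the largest difference, held neither motif in these 300 bases, which says only that these letters are not in this window. Slc25a20 held a repeat with 2 mismatches, AGGTGAAAGGTCG, from base 16 of the gene on. Acadvl, which did not pass in any comparison, held the closest repeat, AGGTCAGTGGTCA with 1 mismatch, 17 bases before the start, and an AGGTCA 169 bases before it. The Hadhb window holds the hexamer on the opposite strand. Of the 27 members, 4 held the repeat (14.8%), namely Slc25a20, Acadvl, Etfa and Echs1, against 3.77% of 33469 promoters of the same length. Of these 4, only Slc25a20 was among the members that rose. Cpt1a, Eci2, Fabp3, Plin2 and Etfb, which rose and were searched, did not hold the repeat. The hexamer was in 6 of the 27 (22.2%), against 16.2% of all; the 2 motifs overlap, since a repeat can contain the hexamer. Cpt1b, Acadl, Acaa2, Ech1, Decr1 and Ppard were not searched. These matches are a description of letters only.

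Of the 4 acyl-CoA dehydrogenases, which carry out the opening step of each turn for chains of different length, 1 rose. Acadl, the long-chain enzyme, had intensities in replicates 1 to 5 of 1535, 1328, 1539, 1572 and 1366 in C4BP wells, 1658, 1496, 1608, 1446 and 1321 in IAPP wells, 1309.7, 1208, 1389.9, 1201 and 1228 in C4BPD wells, and 1216, 1332, 1275, 1207 and 1116 in DMSO wells. The groups overlapped, and all but 1 array of IAPP wells lay above the DMSO wells. Acadl was 1.22-fold higher in IAPP than in DMSO wells (limma adjusted p = 0.0151) and 1.19-fold higher in C4BP than in DMSO wells (limma adjusted p = 0.0228). Against C4BPD, the C4BP wells gave a log2 difference of 0.21 (limma adjusted p = 0.115), which passed with replicate number added to the model (limma adjusted p = 0.0250). With arrays centred on their medians the calls against DMSO were lost (limma adjusted p = 0.0577 for IAPP and 0.0748 for C4BP), with log2 differences of 0.28 and 0.25.

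Acadvl, Acadm and Acads, the very-long-, medium- and short-chain enzymes, passed in no comparison. Against DMSO, Acadvl had log2 differences of 0.04 in C4BP and 0.06 in IAPP wells. Acadm had -0.07 in C4BP and -0.05 in IAPP wells, and Acads had 0.01 in C4BP and 0.04 in IAPP wells. The 95% intervals in IAPP wells ran from -0.02 to 0.14 for Acadvl, from -0.15 to 0.06 for Acadm and from -0.08 to 0.16 for Acads. Each of these intervals lies under the log2 difference of 0.29 measured for Acadl, an estimate with an uncertainty of its own. Whether Acadl differs from these genes was not tested.

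Among the 5 genes of hydration, the next dehydrogenation and cleavage, Acaa2 rose and Hadhb was lower in 1 comparison. Acaa2, the mitochondrial acetyl-CoA acyltransferase that cleaves the chain, had intensities in replicates 1 to 5 of 3373, 4065, 3818, 4169.8 and 3855 in C4BP wells, 2925, 3693, 3737, 3437 and 3608 in IAPP wells, 2510.1, 2690.2, 2958, 2667 and 2845 in C4BPD wells, and 2184, 2898, 2597, 2419.8 and 2688 in DMSO wells. All C4BP and IAPP arrays lay above all DMSO arrays, and replicate 1 was the lowest of its group in each of the 4 groups. Acaa2 was 1.36-fold higher in IAPP than in DMSO wells (log2 difference 0.45 ± 0.08 SE, limma adjusted p = 0.00163), 1.51-fold higher in C4BP than in DMSO wells (limma adjusted p = 3.52e-05) and 1.41-fold higher in C4BP than in C4BPD wells (limma adjusted p = 0.00075). The difference of C4BP from IAPP wells, 0.15 with a 95% interval from -0.01 to 0.31, did not pass (limma adjusted p = 0.696).

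Hadhb and Hadha encode the beta and alpha subunits of the mitochondrial trifunctional protein, which acts on long chains. Their annotated starts are 301 bases apart on opposite strands, and their promoter windows share 200 bases. Hadhb intensity in replicates 1 to 5 was 2851, 2684, 2944, 2949 and 2789.8 in C4BP wells, 2901, 2985, 2969, 2879 and 2743 in IAPP wells, 2740.2, 3287, 3357, 3237 and 3228 in C4BPD wells, and 3232, 3208, 3305, 3053 and 3141 in DMSO wells. All C4BP and IAPP arrays lay below all DMSO arrays, while C4BPD replicate 1 lay below the other C4BPD arrays. The Hadhb level in C4BP wells was 0.892 of that in DMSO wells (log2 difference -0.17 ± 0.05 SE, limma adjusted p = 0.0483), a call lost when any of 17 of the 20 arrays was left out. In IAPP against DMSO wells it was -0.14 (limma adjusted p = 0.163), which passed when C4BPD replicate 1 was left out of the shared fit (limma adjusted p = 0.0348).

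Hadha averaged 4735 ± 128 in C4BP, 4663 ± 207 in IAPP, 5068 ± 153 in C4BPD and 5048 ± 179 in DMSO wells (SD, n = 5 each), and passed in no comparison. Its log2 differences from DMSO were -0.09 in C4BP (limma adjusted p = 0.209) and -0.11 in IAPP wells (limma adjusted p = 0.134). The Hadha difference in IAPP wells passed with replicate number added to the model (limma adjusted p = 0.0246). Echs1, the short-chain enoyl-CoA hydratase, had a log2 difference of -0.19 in IAPP and -0.06 in C4BP wells (limma adjusted p = 0.126 and 0.730). The Echs1 difference in IAPP wells passed without DMSO replicate 5 (limma adjusted p = 0.0262) and with replicate number added to the model (limma adjusted p = 0.00567). Hadh, the short-chain hydroxyacyl-CoA dehydrogenase, which in human beta cells is known for restraining insulin secretion, averaged 9014 ± 129 in C4BP, 8786 ± 180 in IAPP, 8886 ± 147 in C4BPD and 8870 ± 189 in DMSO wells (SD, n = 5 each). Its log2 differences from DMSO of 0.02 in C4BP and -0.01 in IAPP wells did not pass.

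Enzymes that prepare unsaturated chains for oxidation divided evenly. Eci2, a delta3,delta2-enoyl-CoA isomerase of peroxisomes and mitochondria, had intensities in replicates 1 to 5 of 1491, 1359.7, 1461, 1666 and 1370.1 in C4BP wells, 1423, 1374, 1294, 1523 and 1523 in IAPP wells, 1061, 913, 1046, 981 and 1056 in C4BPD wells, and 939, 1069, 1025, 1065 and 970.0 in DMSO wells. Every C4BP and IAPP array lay above every C4BPD and DMSO array. Eci2 was 1.41-fold higher in IAPP than in DMSO wells (log2 difference 0.49 ± 0.06 SE, limma adjusted p = 4.88e-05), 1.45-fold higher in C4BP than in DMSO wells (limma adjusted p = 8.56e-06) and 1.45-fold higher in C4BP than in C4BPD wells (limma adjusted p = 2.46e-05). In C4BPD against DMSO wells it did not move past the threshold (log2 difference -0.0035, limma adjusted p = 0.991).

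Ech1, a dienoyl-CoA isomerase, had intensities in replicates 1 to 5 of 1744, 1844, 1762, 1857 and 1716 in C4BP wells, 1645, 1634, 1808, 1710.0 and 1770.4 in IAPP wells, 1636, 1546, 1527, 1472 and 1474 in C4BPD wells, and 1321, 1645, 1437, 1418 and 1401 in DMSO wells. C4BP arrays lay above all C4BPD and DMSO arrays, and IAPP arrays overlapped the DMSO arrays through DMSO replicate 2. Ech1 was 1.19-fold higher in IAPP than in DMSO wells (limma adjusted p = 0.00628), 1.24-fold higher in C4BP than in DMSO wells (limma adjusted p = 0.00047) and 1.17-fold higher in C4BP than in C4BPD wells (limma adjusted p = 0.0182). Leaving out C4BP replicate 2 or 4, or C4BPD replicate 4 or 5, ended the last of these calls (limma adjusted p between 0.0551 and 0.0607). Eci1, the mitochondrial counterpart of Eci2, had log2 differences from DMSO of -0.09 in C4BP and -0.11 in IAPP wells, and Decr1, the dienoyl-CoA reductase, had -0.08 in C4BP and -0.10 in IAPP wells. Neither passed.

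Electron transfer flavoprotein and its dehydrogenase pass electrons from the acyl-CoA dehydrogenases to ubiquinone. Etfb, the beta subunit, had intensities in replicates 1 to 5 of 1645, 1654, 1550.1, 1703 and 1594 in C4BP wells, 1495, 1502, 1502, 1421 and 1529 in IAPP wells, 1492, 1540.1, 1585, 1477 and 1540.5 in C4BPD wells, and 1437, 1592, 1462, 1469 and 1369 in DMSO wells. All 5 C4BP arrays lay above all 5 IAPP arrays, and they overlapped the DMSO arrays. Etfb was 1.11-fold higher in C4BP than in DMSO wells (limma adjusted p = 0.0248), which was lost when arrays were centred on their medians (limma adjusted p = 0.0981) or when only those 10 arrays were fitted (limma adjusted p = 0.129). Between C4BP and IAPP wells its log2 difference of 0.13 did not pass (limma adjusted p = 0.218), and in IAPP against DMSO wells it was 0.02 (limma adjusted p = 0.934). Etfa and Etfdh passed in no comparison, with log2 differences from DMSO of 0.02 and 0.07 in C4BP wells and of 0.0034 and 0.06 in IAPP wells.

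None of the 4 members grouped as peroxisomal passed in any comparison. Eci2, an enzyme of peroxisomes and mitochondria that rose, is counted with the enzymes for unsaturated chains. Acaa1a, the peroxisomal thiolase, averaged 542 ± 34.9 in C4BP, 555 ± 35.8 in IAPP, 564 ± 16.4 in C4BPD and 566 ± 19.4 in DMSO wells (SD, n = 5 each). Hsd17b4, the peroxisomal bifunctional protein for branched and very long chains, had log2 differences from DMSO of 0.02 in C4BP and -0.06 in IAPP wells. Pex11a, which takes part in peroxisome division, had 0.05 in C4BP and -0.01 in IAPP wells. Ehhadh, the L-bifunctional protein and a PPAR alpha target in liver, had 0.0067 in C4BP and 0.0061 in IAPP wells, with 95% intervals in both from -0.12 to 0.14.

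Fabp3 had the largest difference from DMSO after Cpt1a among the 33 in both C4BP and IAPP wells. Fabp3, a fatty acid binding protein of the cytosol best known from heart, had intensities in replicates 1 to 5 of 1155, 1077, 1100.0, 1192 and 910.0 in C4BP wells, 1091, 1061, 1051, 1098 and 1054 in IAPP wells, 845, 668, 761, 704 and 683 in C4BPD wells, and 643, 630.4, 732, 735 and 666 in DMSO wells. Every C4BP and IAPP array lay above every C4BPD and DMSO array, and C4BP replicate 5 was the lowest of the upper 10. Fabp3 was 1.58-fold higher in IAPP than in DMSO wells (log2 difference 0.66 ± 0.07 SE, limma adjusted p = 6.84e-06), 1.59-fold higher in C4BP than in DMSO wells (limma adjusted p = 2.59e-06) and 1.48-fold higher in C4BP than in C4BPD wells (limma adjusted p = 5.19e-05).

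Plin2, which coats lipid droplets, had intensities in replicates 1 to 5 of 446.9, 457.7, 475.4, 531.0 and 468.0 in C4BP wells, 469.2, 459.1, 448.4, 486.1 and 500.7 in IAPP wells, 361.9, 446.7, 410.9, 421.0 and 427.7 in C4BPD wells, and 368.8, 409.6, 364.8, 417.9 and 425.2 in DMSO wells. The C4BP and IAPP arrays again lay above all C4BPD and DMSO arrays, by a narrow gap. Plin2 was 1.19-fold higher in IAPP than in DMSO wells (limma adjusted p = 0.0207) and 1.20-fold higher in C4BP than in DMSO wells (limma adjusted p = 0.00991). Against C4BPD the C4BP wells gave a log2 difference of 0.20 (limma adjusted p = 0.0911). That difference passed after quantile normalization (limma adjusted p = 0.0338) and with replicate number added to the model (limma adjusted p = 0.0176). Leaving out DMSO replicate 1 or 3, or IAPP replicate 4 or 5, ended the call for IAPP against DMSO (limma adjusted p between 0.0565 and 0.0673).

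Other genes used as markers of PPAR activity passed in no comparison. Angptl4, a secreted inhibitor of lipoprotein lipase, averaged 170.1 ± 16.3 in C4BP, 174 ± 14.1 in IAPP, 156 ± 13.1 in C4BPD and 166 ± 13.7 in DMSO wells (SD, n = 5 each). Pdk4, the kinase that shuts off pyruvate dehydrogenase when fatty acids are burned, had log2 differences from DMSO of 0.07 in C4BP and 0.08 in IAPP wells (95% interval in IAPP wells from -0.11 to 0.28). Both lay under the median of all probe sets. Ucp2, an inner-membrane carrier studied in beta cells for its bearing on insulin secretion, was well above it and had log2 differences of 0.02 in C4BP and -0.0049 in IAPP wells, with a 95% interval in IAPP wells from -0.11 to 0.10.

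Acot1 and Acot2, close copies that encode the cytosolic and a mitochondrial acyl-CoA thioesterase, passed in no comparison. Acot2 averaged 601 ± 54.8 in C4BP, 603 ± 32.7 in IAPP, 543 ± 24.4 in C4BPD and 538 ± 20.2 in DMSO wells (SD, n = 5 each). Its log2 difference from DMSO was 0.15 in C4BP (limma adjusted p = 0.135) and 0.16 in IAPP wells (limma adjusted p = 0.161), and 4 of the 5 IAPP arrays lay above the DMSO arrays. Without C4BP replicate 5, the difference in C4BP wells passed (limma adjusted p = 0.0168). Acot1 lay far under the median of all probe sets, and probes may not separate the copies.

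The receptors themselves passed in no comparison. Ppara averaged 163 ± 15.1 in C4BP, 163 ± 10.7 in IAPP, 179 ± 18.0 in C4BPD and 173 ± 9.11 in DMSO wells (SD, n = 5 each), near the median of all probe sets. Ppard averaged 616 ± 42.8 in C4BP, 619 ± 46.1 in IAPP, 612 ± 77.8 in C4BPD and 669 ± 64.1 in DMSO wells (SD, n = 5 each). The log2 differences from DMSO in C4BP and IAPP wells were -0.09 and -0.09 for Ppara and -0.12 and -0.11 for Ppard. The other Ppard probe set, which is dimmer, gave -0.09 in C4BP and -0.05 in IAPP wells and did not pass.

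**Figure D3:**
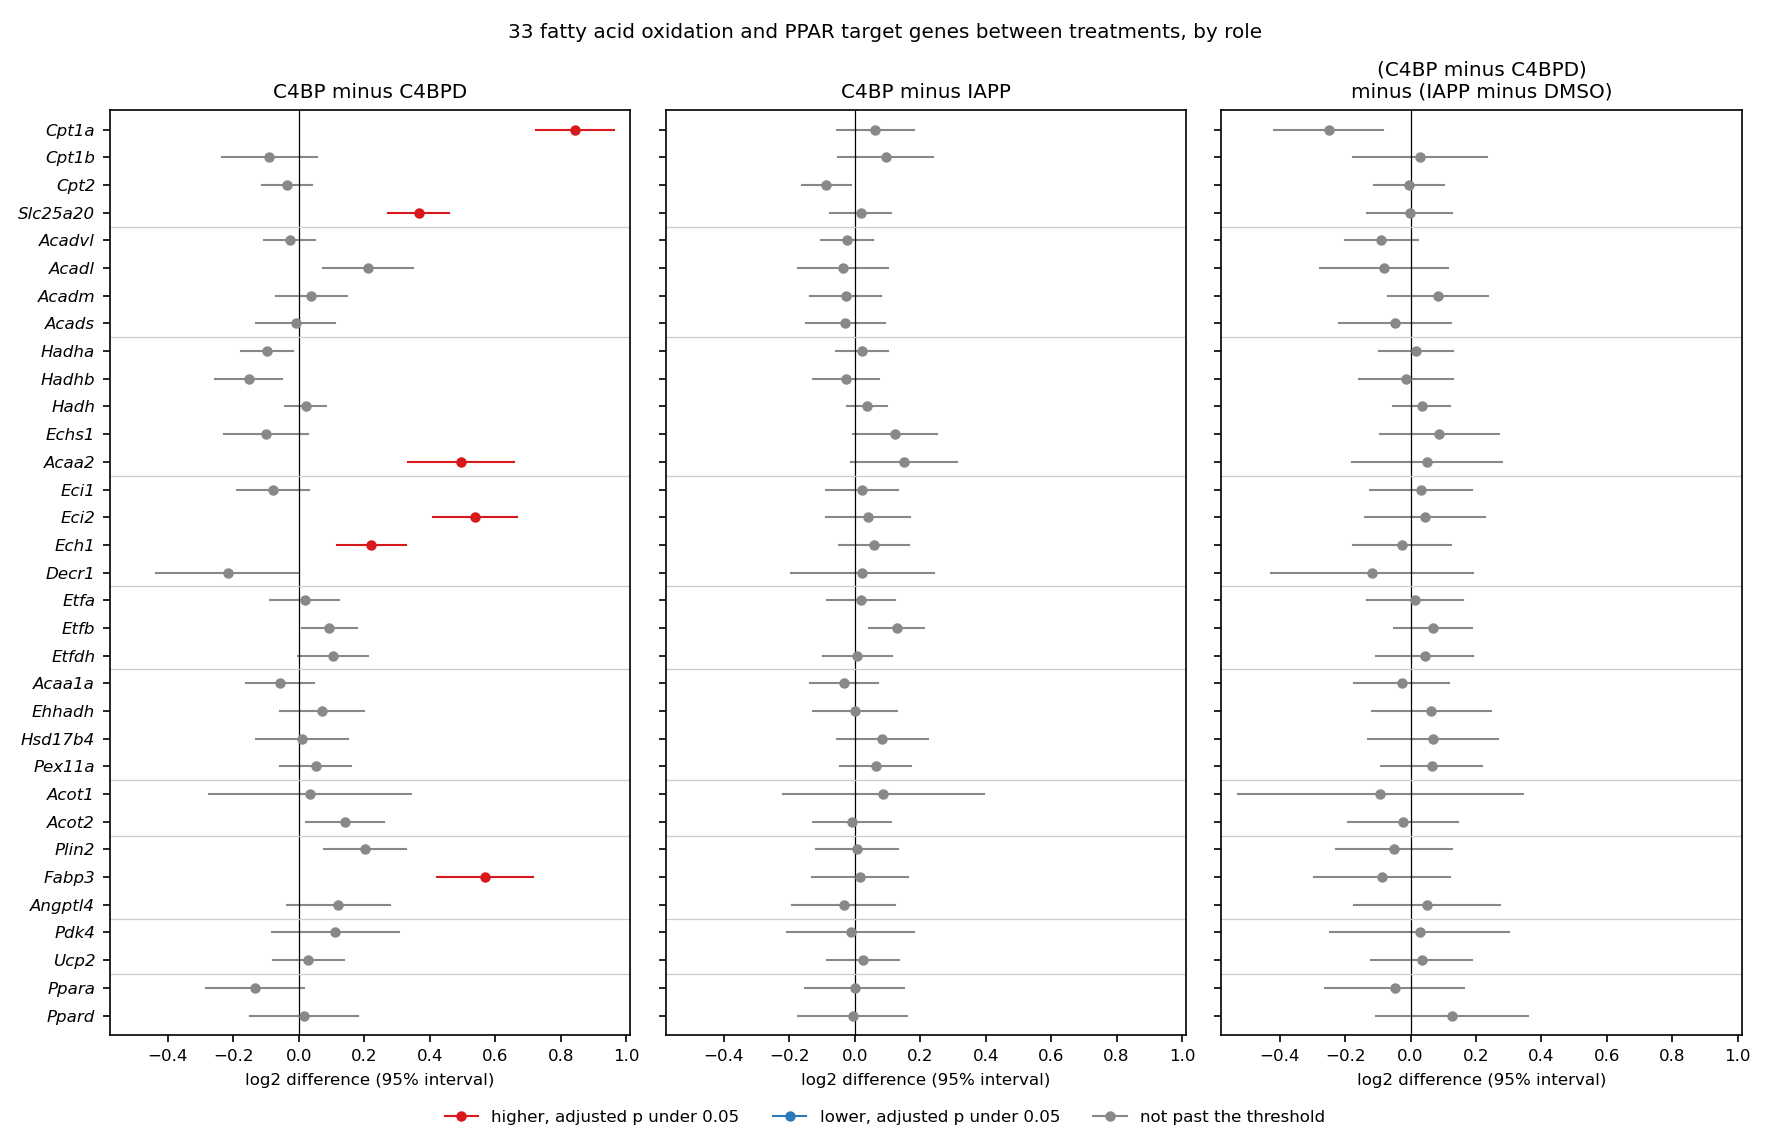
Log2 differences of the 33 genes (x axis, log2 units, points with 95% intervals from limma) for C4BP minus C4BPD, C4BP minus IAPP, and the interaction, from left to right. Red points passed the threshold: 6 in C4BP minus C4BPD and 0 in each of the other panels.

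A further 130 measured genes of fatty acid handling outside the 33 stood in 13 lists by role. In C4BP against DMSO wells 11 were higher and 11 lower (16.9% of the 130), against 2.72% higher and 3.23% lower over all genes. In IAPP against DMSO wells 7 were higher and 7 lower (10.8%), against 1.41% and 1.97% over all genes, and in C4BPD against DMSO wells 5 were higher and 2 lower (5.38%), against 1.93% over all genes in either direction. C4BP against C4BPD wells gave 4 higher and 3 lower, against 0.754% and 1.62% over all genes. C4BP against IAPP wells gave 1 higher and 3 lower, against 0.606% over all genes in either direction. The genes named are the members of each list past the threshold, at most 4 per list and comparison, by smallest p. AMP-activated protein kinase, which lowers malonyl-CoA by phosphorylating acetyl-CoA carboxylase, and that carboxylase made up the list with the most calls against DMSO in IAPP wells, with 3 of 10 higher and 1 lower.

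In that list, Prkab2, a beta subunit of the kinase, was higher by 0.32 in C4BP (limma adjusted p = 0.000347) and 0.26 in IAPP wells (limma adjusted p = 0.00491) than in DMSO wells, on the log2 scale, and by 0.24 in C4BP than in C4BPD wells (limma adjusted p = 0.0115). Prkaa2, a catalytic subunit, was higher by 0.26 in C4BP (limma adjusted p = 0.0133) and 0.29 in IAPP wells (limma adjusted p = 0.00817). Prkag1, a gamma subunit, rose by 0.11 in IAPP wells (limma adjusted p = 0.0417). Acaca, the carboxylase that makes malonyl-CoA, was lower, with a log2 difference of -0.22 in C4BP (limma adjusted p = 0.0173) and -0.23 in IAPP wells (limma adjusted p = 0.0250). Its intensity ran between 1221 and 1404 in C4BP, 1292 and 1467 in IAPP, 1496 and 1590 in C4BPD and 1410 and 1801 in DMSO wells, so IAPP arrays overlapped the DMSO arrays and C4BP arrays did not. In C4BPD against DMSO wells none of the 10 genes of this list passed.

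Among 18 other genes of lipid droplets and lipolysis, 2 were higher and 1 lower in IAPP against DMSO wells. Over all genes, 1.41% were higher and 1.97% lower there. Cidea, a droplet protein, was higher by 0.31 in C4BP (limma adjusted p = 0.000246) and 0.28 in IAPP wells (limma adjusted p = 0.00166), and by 0.24 in C4BP against C4BPD wells (limma adjusted p = 0.00725). Its relative Cidec was lower, at -0.19 in C4BP (limma adjusted p = 0.0344) and -0.19 in IAPP wells (limma adjusted p = 0.0487). Lipa, the lysosomal acid lipase, was higher by 0.20 in IAPP against DMSO wells (limma adjusted p = 0.0364) and by 0.21 in C4BP against C4BPD wells (limma adjusted p = 0.0379).

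Of 12 acyl-CoA synthetases and fatty acid transport proteins, Slc27a4, a transport protein with acyl-CoA synthetase activity, was higher against DMSO by 0.18 in C4BP (limma adjusted p = 0.0259) and 0.23 in IAPP wells (limma adjusted p = 0.00688), and by 0.21 in C4BP against C4BPD wells (limma adjusted p = 0.0178). Acsl3, an acyl-CoA synthetase of lipid droplets, had -0.24 in C4BP against DMSO wells (limma adjusted p = 0.0363). In IAPP against DMSO wells it had -0.24 as well and did not pass (limma adjusted p = 0.0560). Slc27a1, another transport protein, had -0.22 in C4BP against C4BPD wells (limma adjusted p = 0.0218). Of 14 other genes of peroxisomal oxidation, Cat, which encodes catalase and breaks down the hydrogen peroxide made there, averaged 4704 ± 174 in C4BP, 4594 ± 140 in IAPP, 4252 ± 202 in C4BPD and 3947 ± 175 in DMSO wells (SD, n = 5 each). Cat was higher than in DMSO wells by 0.25 in C4BP (limma adjusted p = 0.000458) and 0.22 in IAPP wells (limma adjusted p = 0.0035). Acox3, a peroxisomal acyl-CoA oxidase for branched chains, was higher by 0.15 in C4BP than in DMSO wells (limma adjusted p = 0.0488).

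Among 13 PPAR partners and coregulators, Ppargc1a, the coactivator PGC-1 alpha, was lower in IAPP than in DMSO wells (log2 difference -0.31, limma adjusted p = 0.0280), with intensities between 237 and 247 in IAPP and 264 and 332 in DMSO wells. In C4BP against DMSO wells it was -0.22 and did not pass (limma adjusted p = 0.114). The retinoid X receptor genes Rxrg and Rxra, partners of the PPARs, were higher in C4BP than in DMSO wells by 0.31 (limma adjusted p = 0.00156) and 0.16 (limma adjusted p = 0.0407). Rxrg was also higher in C4BPD against DMSO wells, by 0.23 (limma adjusted p = 0.0442). However, Rxrg lay under the median of all probe sets in every group, so a signal over background was not shown for it. Lpin1, a phosphatidate phosphatase that also acts as a coactivator, was lower in C4BP than in DMSO wells (log2 difference -0.22, limma adjusted p = 0.00609).

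Several genes passed against DMSO in both kinds of wells that held C4BP and not in IAPP wells. Crot, the peroxisomal carnitine octanoyltransferase, was higher by 0.37 in C4BP (limma adjusted p = 0.0021) and 0.31 in C4BPD wells (limma adjusted p = 0.0284), beside 0.15 in IAPP wells (limma adjusted p = 0.403). Slc22a5, the carnitine transporter of the cell membrane, was higher by 0.28 in C4BP (limma adjusted p = 0.000296) and 0.18 in C4BPD wells (limma adjusted p = 0.0327), beside 0.12 in IAPP wells (limma adjusted p = 0.198). Their differences between C4BP and IAPP wells, 0.22 for Crot and 0.16 for Slc22a5, did not pass (limma adjusted p = 0.242 and 0.127).

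Gpr119, a lipid receptor of beta cells, was lower in C4BP (log2 difference -0.32, limma adjusted p = 0.0024) and in C4BPD wells (-0.41, limma adjusted p = 0.000725) than in DMSO wells, and here the difference of C4BP from IAPP wells passed too (-0.31, limma adjusted p = 0.0206). Ffar2, a receptor for short-chain fatty acids, was higher against DMSO by 0.21 in C4BP (limma adjusted p = 0.0107) and 0.25 in C4BPD wells (limma adjusted p = 0.0073). Ffar4, a receptor for long-chain fatty acids, was higher by 0.29 in C4BPD than in DMSO wells (limma adjusted p = 0.00733). However, Ffar4 lay under the median of all probe sets in every group, so a signal over background was not shown for it. Rgs16, a regulator of G-protein signalling listed as a PPAR target, was lower in all: its log2 difference from DMSO was -0.46 in C4BP (limma adjusted p = 3.8e-08), -0.20 in IAPP (limma adjusted p = 0.0017) and -0.33 in C4BPD wells (limma adjusted p = 8.27e-06). Its arrays ran between 3877 and 4259 in C4BP, 4782 and 4970 in IAPP, 4331 and 4578 in C4BPD and 5295 and 5802 in DMSO wells, so the 4 groups did not overlap, and the difference of C4BP from IAPP wells passed as well (-0.26, limma adjusted p = 0.000496).

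Fads2 and Txnip, also listed as PPAR targets, were lower in 1 comparison each. Fads2, a fatty acid desaturase, had a log2 difference of -0.15 in C4BP against DMSO wells (limma adjusted p = 0.0149). Txnip, a glucose-responsive inhibitor of thioredoxin, had -0.38 in C4BP against IAPP wells (limma adjusted p = 0.0426). Of 9 other genes around pyruvate dehydrogenase and uncoupling, Pdhb, a subunit of the enzyme, had -0.16 (limma adjusted p = 0.0158) and Pdp2, a phosphatase that activates it, had -0.26 in C4BP against DMSO wells (limma adjusted p = 0.0098). Pdk3, a kinase that inactivates it, had -0.19 in C4BP against C4BPD wells (limma adjusted p = 0.0377). Bdh1, the ketone body enzyme 3-hydroxybutyrate dehydrogenase, had -0.15 in C4BP against DMSO wells (limma adjusted p = 0.0299).

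Of 11 other mitochondrial acyl-CoA enzymes, 3 were lower and 0 higher in IAPP against DMSO wells, beside 1.97% and 1.41% of all genes. All 3 are enzymes of amino acid or odd-chain breakdown. Ivd, isovaleryl-CoA dehydrogenase, had a log2 difference of -0.22 (limma adjusted p = 0.000523), and the propionyl-CoA carboxylase subunits Pcca and Pccb had -0.19 (limma adjusted p = 0.0328) and -0.18 (limma adjusted p = 0.0348). In C4BP against DMSO wells Ivd passed at -0.13 (limma adjusted p = 0.0279), as it did in C4BP against C4BPD wells at -0.15 (limma adjusted p = 0.0155), while Pcca, at 0.03, did not, and Pcca was higher in C4BP than in IAPP wells by 0.22 (limma adjusted p = 0.0414). None of the 6 other acyl-CoA thioesterases and none of the 7 other fatty acid binding proteins passed against DMSO in C4BP, IAPP or C4BPD wells.

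**Figure D4:**
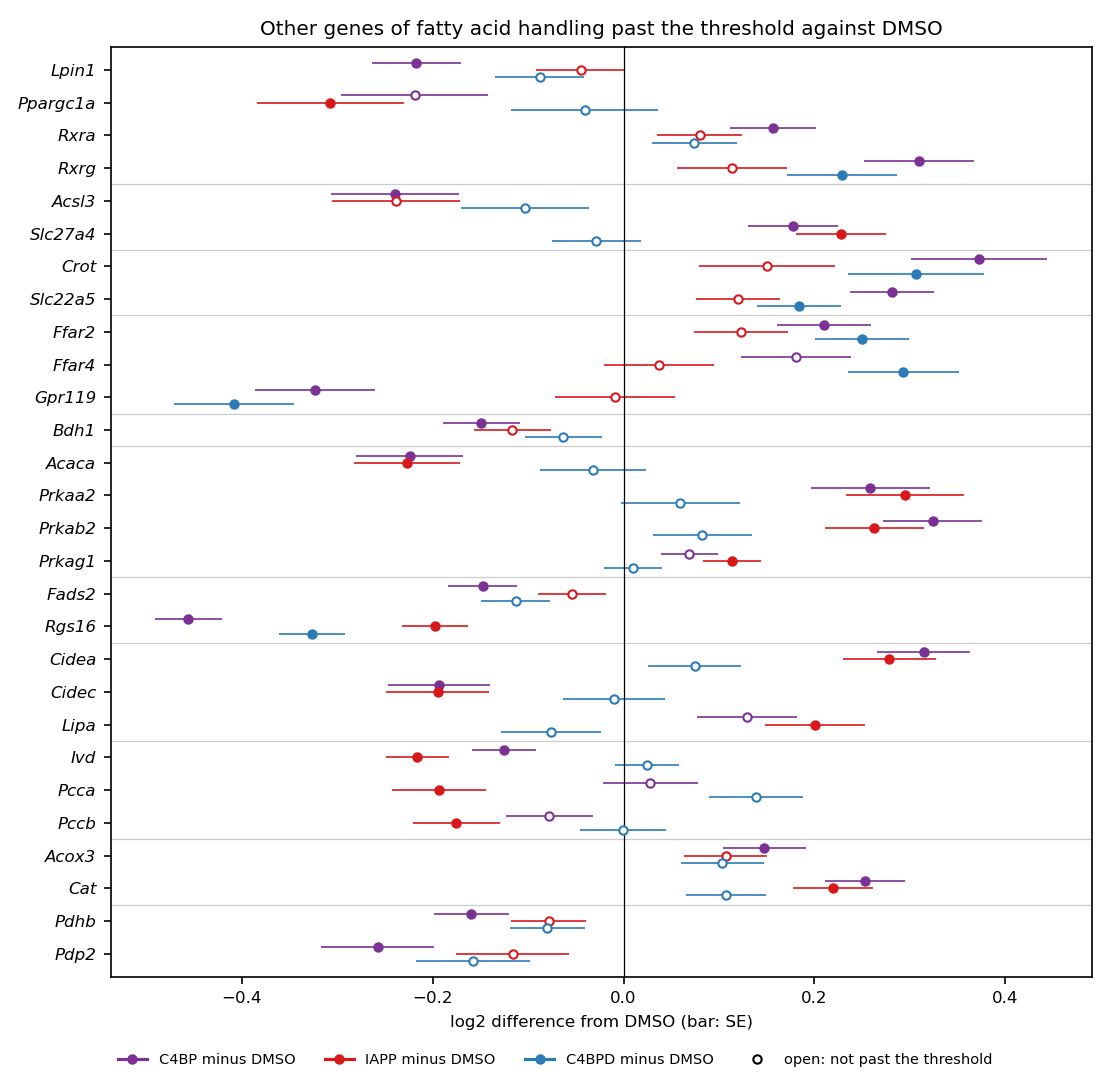
Log2 difference from DMSO wells (x axis, log2 units, bars are the SE) of the genes of fatty acid handling outside the 33 that passed against DMSO, by list down the page, for C4BP (purple), IAPP (red) and C4BPD (blue) wells; open points did not pass. Prkaa2, Prkab2, Slc27a4, Cidea and Cat were higher in both C4BP and IAPP wells, and Crot, Slc22a5, Rxrg and Ffar2 in both C4BP and C4BPD wells. Rxrg and Ffar4 lay under the median of all probe sets in every group.

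Some beta-cell markers also passed against DMSO in C4BP and IAPP wells. Of the 13 measured, 4 were lower and 0 higher in C4BP against DMSO wells, beside 3.23% and 2.72% of all genes. In IAPP against DMSO wells 2 were lower and 0 higher, beside 1.97% and 1.41% of all genes. In C4BPD against DMSO wells 0 of 13 passed, beside 1.93% of all genes in either direction. Mafa, a transcription factor that drives insulin gene expression, had a log2 difference of -0.25 in C4BP (limma adjusted p = 0.0340) and -0.26 in IAPP wells (limma adjusted p = 0.0372), and Slc2a2, the glucose transporter GLUT2, had -0.14 in C4BP (limma adjusted p = 0.00483) and -0.11 in IAPP wells (limma adjusted p = 0.0407). Ins1, Ins2 and Iapp did not pass: Iapp averaged 11161 ± 695 in C4BP, 11240 ± 568 in IAPP, 11855 ± 263 in C4BPD and 11841 ± 523 in DMSO wells (SD, n = 5 each). Markers of liver and fat cells, in which many of the 33 genes are abundant, gave summed intensities of 724 to 865 in C4BP, 753 to 841 in IAPP, 771 to 819.6 in C4BPD and 743 to 861 in DMSO wells, with 1 or 2 of the 6 measured above the median of all probe sets. The part of these markers in the results was not tested.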

How the data were processed

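The 20 Affymetrix Rat Gene 2.0 arrays were grouped by sample title, 5 per group. The deposited values are linear intensities between 4.7287 and 18573.7, which the authors had summarised by probe set; the submitters' processing notes name Affymetrix Expression Console. Normalization, centring and annotation version were not given in the sources used here; an unknown normalization could compress small folds. No detection p-values were used.

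Of 36685 probe sets, 190 controls were left out. The platform annotation gives 18511 probe sets 1 symbol, 575 several and 17599 none. The brightest probe set with 1 symbol was kept for each gene, a choice that concerned 291 genes, which left 18166. Intensities were log2-transformed with no floor and no filter. All 20 arrays entered 1 linear model of 4 group means (limma 3.58.1, lmFit and eBayes, in R 4.3.3). All tests were two-sided, with Benjamini-Hochberg adjustment over the 18166 genes and 0.05 as the threshold. Each fold is a ratio between geometric means. The fit was tested on simulated data. Python 3.11.15 with matplotlib 3.10.9 drew the figures. Promoters came from RefSeq (GRCr8).

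The 34 members and the other lists were chosen with earlier results of these data known, so their counts are descriptions. All measured members are named, and of each other list up to 4 genes past the threshold per comparison, by smallest p. Replicate numbers were not taken as pairs: at least 1 same-numbered pair in each comparison had deviations that correlated under 0.1. The median of these correlations was positive in each comparison, from 0.09 for IAPP against DMSO to 0.32 for C4BP against IAPP. A C4BP array correlated best with the IAPP array of its own number in 4 of 5 cases, and with the C4BPD array in 1 of 5. The array numbers in the titles place the 4 arrays of a replicate together, 1 to 4 for replicate 1. What this order stands for is not stated. Results with the replicate number as a block are therefore given in the closing section. Alternatives covered centring, quantile normalization, dim genes, other probe sets, array weights, an intensity trend, fits on the compared groups only, the replicate block, groups from the treatment field and each array left out.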

Additional observations from a re-analysis of the deposited data

Results flagged for a closer look

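Each group of 5 arrays of each of the 33 genes was examined for an array far from the others, by the gap to its nearest neighbour over the whole range of the group. Of 132 groups, 9 (6.82%) were past Dixon's critical value of 0.71, where chance gives about 1 in 20. None of the 9 concerns a gene that rose.

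C4BPD replicate 1 stood apart in 3 genes. Its Hadhb intensity was 2740.3, against 3228 to 3357 in the other C4BPD arrays (gap ratio 0.791). Its Acads intensity was 1555, against 1245 to 1328 (0.734), and its Ppard intensity was 748, against 554 to 595 (0.789). Without that array, Hadhb was lower in C4BP than in C4BPD wells, with a log2 difference of -0.21 (limma adjusted p = 0.00473), and in IAPP than in DMSO wells at -0.14 (limma adjusted p = 0.0348).

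Ppara stood apart in 2 groups: C4BP replicate 5 had 136, against 168 to 171 in the other C4BP arrays (0.914), and DMSO replicate 1 had 189, against 166 to 171 in the other DMSO arrays (0.777). DMSO replicate 1 also had the highest Ucp2 intensity of its group, 7368 against 6447 to 6647 (0.783). The Angptl4 intensity of DMSO replicate 4 was 142, against 168 to 174 (0.815). For Acot2, IAPP replicate 4 had 545, against 609.9 to 624 (0.820), and for Pdk4, C4BPD replicate 5 had 87.9, against 107 to 114 (0.750).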

How the results depend on the processing

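With the title groups, no member that passed changed sign under any alternative. Cpt1a, Slc25a20, Acaa2, Eci2, Fabp3 and, against DMSO, Ech1 kept every call under all of them, except Cpt1a in C4BPD against DMSO wells: fitted on those groups only, 0 of the 33 genes passed there. Leaving out each array in turn gave 7 to 10 genes for C4BP against DMSO, 7 to 9 for IAPP against DMSO, 5 to 7 for C4BP against C4BPD, 1 in each case for C4BPD against DMSO, and 8 to 9 in the F test. The calls of Acadl, Plin2 (IAPP against DMSO), Etfb and Hadhb against DMSO, and of Ech1 for C4BP against C4BPD, were lost in some of the alternatives, with limma adjusted p up to 0.0765, 0.0673, 0.129, 0.122 and 0.0607. Other differences passed only under an alternative: Cpt2 in C4BP against DMSO wells without dim genes (limma adjusted p = 0.0301), with an intensity trend (0.0374) and without DMSO replicate 3 (0.0342); Hadha in IAPP against DMSO wells with the trend (0.0482); Echs1 there without DMSO replicate 5 (0.0262); Acot2 in C4BP against DMSO wells without C4BP replicate 5 (0.0168). In C4BP against C4BPD wells, Plin2 passed after quantile normalization (0.0338) and without dim genes (0.0449), and Hadhb with array weights (0.0220) and without C4BPD replicate 1 (0.00473), where it also passed in IAPP against DMSO wells (0.0348). The cause was not tested.

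With the replicate number as a block, 14 members passed the F test against 9 without it, and the counts of the pairwise comparisons stayed within 1.5 times. The block brought past the threshold Cpt2 in C4BP against DMSO (limma adjusted p = 0.0173), Echs1 and Hadha in IAPP against DMSO (0.00567 and 0.0246), and Acadl and Plin2 in C4BP against C4BPD wells (0.0250 and 0.0176). Over all genes the block gave 1884 calls against 1082 for C4BP against DMSO, 1133 against 614 for IAPP against DMSO, 797 against 351 for C4BPD against DMSO, 352 against 110 for C4BP against IAPP, 958 against 431 for C4BP against C4BPD, 18 against 9 in the interaction and 2604 against 1426 in the F test. Same-numbered pairs with deviations that correlated over 0.1 were 2 to 4 of 5 per comparison.

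Grouped by the treatment field, 0 of 18166 genes passed in any comparison, so 0 members passed in IAPP, C4BPD or C4BP against DMSO, in C4BP against C4BPD or in the F test; at an unadjusted limma p under 0.05 there were 707 genes for IAPP against DMSO and 653 for C4BP against DMSO. Of the calls, 22 then turned sign and 3 kept it without passing, namely 0.0334 for Plin2 in C4BP against DMSO, 0.00038 for Acadl in IAPP against DMSO and 0.0542 for Cpt1a in C4BPD against DMSO wells. For C4BP against DMSO the log2 differences became -0.22 for Acaa2, -0.0596 for Acadl, -0.26 for Cpt1a, -0.12 for Ech1, -0.12 for Eci2, -0.12 for Etfb, -0.13 for Fabp3, 0.0364 for Hadhb and -0.12 for Slc25a20. For IAPP against DMSO they became -0.15 for Acaa2, -0.10 for Cpt1a, -0.0359 for Ech1, -0.0784 for Eci2, -0.0880 for Fabp3, -0.0157 for Plin2 and -0.10 for Slc25a20. For C4BP against C4BPD they became -0.20 for Acaa2, -0.31 for Cpt1a, -0.16 for Ech1, -0.15 for Eci2, -0.0853 for Fabp3 and -0.11 for Slc25a20.

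Counts over all genes moved by more than 1.5 times in other settings. Fits on the compared groups only gave 663 for C4BP against DMSO, 208 for C4BPD against DMSO, 33 for C4BP against IAPP and 223 for C4BP against C4BPD. C4BPD against DMSO gave 221 with centred arrays, 226 with all probe sets tested, 644 with array weights, and as few as 217 with an array left out (C4BPD replicate 5). C4BP against IAPP gave 70 with centred arrays, 70 with all probe sets tested, 205 without dim genes, and as few as 58 with an array left out (IAPP replicate 3). The interaction gave 0 with all probe sets tested and as few as 3 with an array left out, and IAPP against DMSO gave 405 without IAPP replicate 4. Genes under the median of all probe sets, Ehhadh, Acot1, Angptl4 and Pdk4 in every group, cannot be read as unchanged. The same holds for Ppara, which lay under it in C4BP, IAPP and DMSO wells and barely above it in C4BPD wells.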
